A study of Mus musculus with 2 samples.

Results

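The proteasome genes are described here as a set of 51: every protein-coding gene of the deposited gene tables whose symbol begins with Psma, Psmb, Psmc, Psmd, Psme, Psmf or Psmg followed by a digit, together with Pomp. They are 51 of 21474 protein-coding genes matched in the tables, and each gene table held 69691 rows in all. The RNA came from MEL cells, a mouse erythroleukemia line that resembles early red cell precursors and turns on hemoglobin genes when dimethyl sulfoxide (DMSO) is added. All material was from cells that had been in 2% DMSO for 5 days, and total RNA was sequenced from fragments of 300 to 350 bases. The 2 libraries form 1 group, called replicate 1 and replicate 2 as numbered in the labels. No untreated library was analysed here, so a level below is that of treated cells and says nothing of a response to DMSO. Both libraries cite the same biosample record, and differences between them may partly be technical.

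The proteasome is the barrel-shaped protease that degrades proteins tagged with ubiquitin. Its 20S core is built from rings of alpha and beta subunits. The outer alpha rings gate the entrance, and the inner beta rings carry the cutting sites. A 19S particle on the end of the core recognises tagged proteins, unfolds them with a ring of ATPases and feeds them in. Interferon and immune cell types can replace the cutting subunits Psmb6, Psmb7 and Psmb5 by Psmb9, Psmb10 and Psmb8, which gives the immunoproteasome, known for making peptides for presentation by class I molecules. In maturing red cells, protein degradation by ubiquitin and the proteasome takes part in clearing the proteins of the precursor.

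The sequences in front of 2 catalytic genes are shown first, as examples of a constitutive catalytic gene with a motif match and an immunoproteasome gene without one. They encode different sites and are not counterparts. The stretch before Psmb5 lies at chr14:54618023-54618172 and that before Psmb10 at chr8:105938445-105938594, both on the minus strand of GRCm38.p6, from RefSeq. Each holds the 150 bases before the first base of the gene in the GENCODE annotation. Capitals mark a match to TGACNNNGC, the core of the antioxidant response element, a kind of site bound by Nfe2l1 and Nfe2l2, which are activators of proteasome genes.

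Psmb5: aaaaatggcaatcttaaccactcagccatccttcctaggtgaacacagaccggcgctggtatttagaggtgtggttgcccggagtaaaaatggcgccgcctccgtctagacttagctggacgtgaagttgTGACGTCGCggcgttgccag
Psmb10: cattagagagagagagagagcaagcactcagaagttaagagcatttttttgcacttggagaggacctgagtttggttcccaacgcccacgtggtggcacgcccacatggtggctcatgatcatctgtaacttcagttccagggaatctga

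The Psmb5 stretch held 11 CG dinucleotides and 1 match, and the Psmb10 stretch held 3 CG dinucleotides and 0 matches. Among the catalytic genes with a promoter entry, this contrast in CG was not one between the classes. Over the 250 bases before the RefSeq start, Psmb8 and Psmb9 held 10 and 12 CG dinucleotides, Psmb6 10, Psmb5 15 and Psmb10 3. Psmb7, the counterpart of Psmb10, had no entry. The RefSeq starts of Psmb8 and Psmb9 lie 474 and 434 bases inside the gene as GENCODE draws it. In all, the promoter table had 46 entries for 43 of the 51 genes. Searched on both strands over the 250 bases before the RefSeq start, 5 of the 46 promoters held TGACNNNGC, beside 10.2% of all 32851 promoters in the table. The share among proteasome genes was thus near that of all promoters. The 5 matches are shown with up to 10 bases on each side, on the strand that reads TGACNNNGC, with the motif in capitals.

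Psmb5: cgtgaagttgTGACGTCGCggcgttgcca
Psmb6: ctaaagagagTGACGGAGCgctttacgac
Psmc6: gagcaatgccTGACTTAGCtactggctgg
Psmd9: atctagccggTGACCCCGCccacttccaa
Psmd12: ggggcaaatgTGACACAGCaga

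On GRCm38.p6 these windows lie at chr14:54618024-54618052 (minus strand) for Psmb5, chr11:70525338-70525366 (plus) for Psmb6 and chr14:45329587-45329615 (minus) for Psmc6. Those of Psmd9 and Psmd12 lie at chr5:123228149-123228177 (plus) and chr11:107479278-107479299 (minus). Psmb6 and Psmb5 are catalytic subunits, Psmc6 and Psmd12 belong to the 19S particle, and Psmd9 is a chaperone of its base.

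The match in Psmb6 ended 1 base before the RefSeq start, and those in Psmb5 and Psmd9 ended 39 and 23 bases before it. Those in Psmc6 and Psmd12 lay farther out, ending 219 and 239 bases before the start. A second motif, the core of the interferon response element (GAAA, any 2 bases, GAAA, on either strand), was found in the promoters of Psmb3, Psmd4 and Psmd9, that is in 3 of 46, beside 2.98% of all promoters. It had no match in the windows of Psmb8, Psmb9 and Psmb10. In 10 of the 46 entries the RefSeq start lies more than 250 bases inside the gene as GENCODE draws it, so the window does not reach the bases before the outer start. They include Psmb8 and Psmb9, with 474 and 434 bases, and Psmd9, with 58777 bases, whose matches to both motifs thus lie at an inner start. A match is a description of letters and not a shown binding site.

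The libraries held 65109488 estimated counts in replicate 1 and 90856320 in replicate 2, and the proteasome genes took 0.581% and 0.549% of them. Levels between genes are given as TPM, a value per effective transcript length that sums to the same total in each library. Protein-coding genes held only 13.5% and 12.9% of that total, so a TPM here is small beside one from a table of mRNA. The red cell identity of the line was checked with 7 erythroid markers, each of which reached 1 TPM in both. Of the 16 listed markers of macrophages and dendritic cells, B cells, T cells and fibroblasts, 0 reached 1 TPM in both libraries. Summed over the 6 macrophage and dendritic markers the level was 0.68 TPM in replicate 1 and 0.5 TPM in replicate 2, and Itgax and H2-Aa had 0 counts in both.

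Most of the proteasome was expressed well above a typical gene. Of the 51 genes, 47 reached 1 TPM in both libraries, beside 37.3% of all protein-coding genes. The median of the 51 was 19.2 TPM in replicate 1 and 16.4 TPM in replicate 2. The 8003 protein-coding genes that reached 1 TPM in both had medians of 4.84 and 3.99 TPM, and 43 proteasome genes lay above these medians in both libraries. Among 13628 protein-coding genes with any TPM, 25 proteasome genes ranked within the first 1000 in both libraries. Together the set held 1.06% of the protein-coding TPM in replicate 1 and 0.860% in replicate 2.

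**Figure D1:**
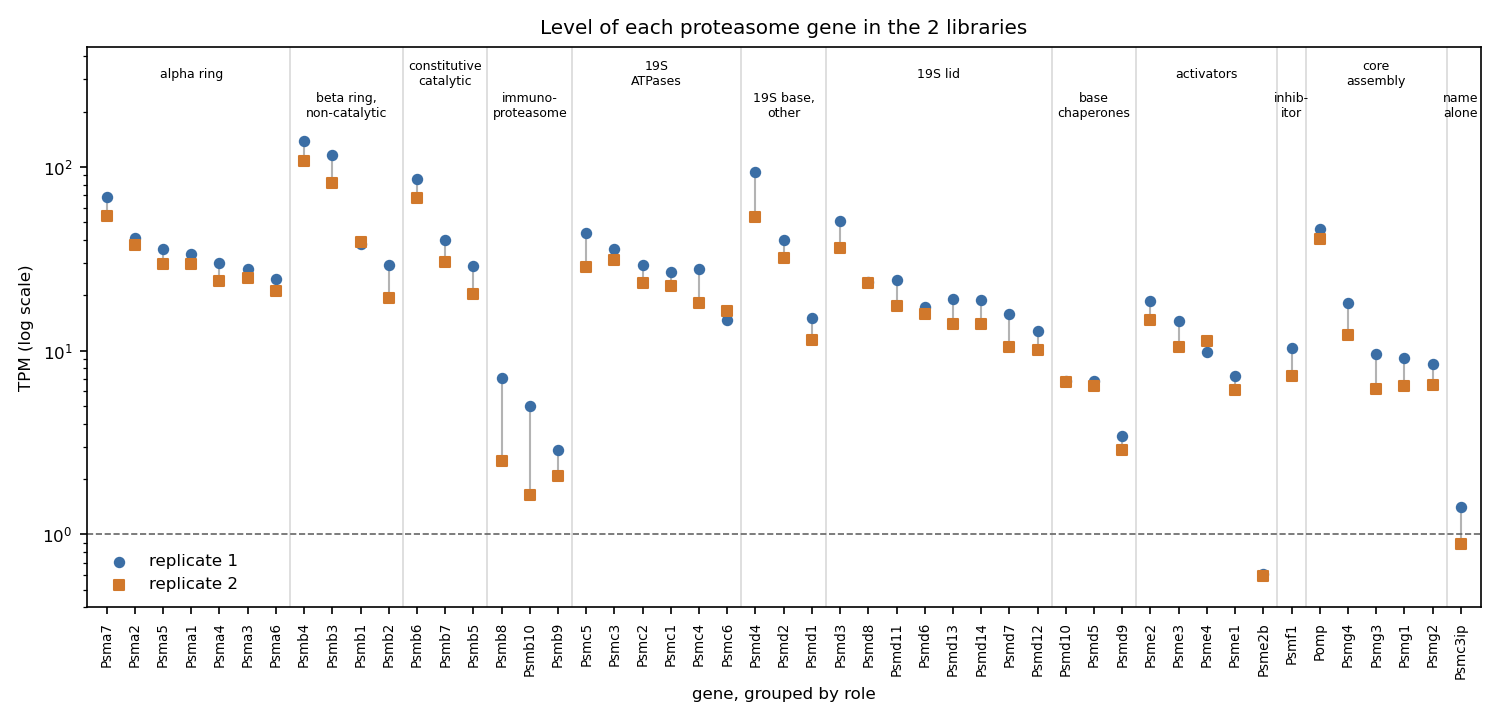
Level in TPM on a log axis of the 49 proteasome genes with a TPM above 0, grouped by role and ordered within a role by mean. Each grey line joins replicate 1 (circle) and replicate 2 (square) of a gene, the dashed line is at 1 TPM, and Psma8 and Psmb11, listed at 0 TPM, are not drawn; the immunoproteasome genes sit between 1.64 and 7.08 TPM, and the constitutive core genes between 19.3 and 138.4 TPM.

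The median level of the 7 alpha subunits of the ordinary core was 33.8 TPM in replicate 1 and 29.6 TPM in replicate 2. Psma7 was the highest in both libraries, at 68.3 and 54.2 TPM, and Psma6 the lowest, at 24.6 and 21.2 TPM. Between them, Psma2 stood at 41.0 and 37.7 TPM, Psma5 at 35.7 and 29.6, and Psma1 at 33.8 and 29.6. Psma5 and Psma1 differed by less than the spread between the libraries. Psma4, at 30.2 and 24.0 TPM, and Psma3, at 27.8 and 24.8 TPM, changed places between the libraries.

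The beta ring was more uneven. Psmb4, a structural subunit that takes part in core assembly, had the highest level of all 51 genes, with 138.4 TPM in replicate 1 and 108.4 TPM in replicate 2. Psmb3, another structural subunit, followed with 117 and 81.7 TPM. Psmb1 was at 38.2 and 39.1 TPM, and Psmb2 at 29.1 and 19.3 TPM. The ranges of Psmb4 and Psmb3 over the libraries overlapped, and both lay above every value of Psmb1 and Psmb2.

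In an assembled core each of the 14 constitutive subunits occurs equally often. Their gene levels, summed over coding and noncoding forms, were not equal. By the mean of the libraries, the highest, Psmb4, was 5.39 times the lowest, Psma6. The SD of log2 TPM over the 14 genes was 0.795. The width was alike in each library, with 5.62 in both, although the lowest gene was Psma6 in replicate 1 and Psmb2 in replicate 2. Psmb4, Psmb3, Psmb6 and Psma7 made up the upper end. Without these 4, a choice made after the values were seen, the other 10 genes spanned a ratio of 1.72. Protein-coding forms held 57.0% and 64.8% of the TPM of Psmb4 and 40.4% and 45.8% of that of Psma3. The span over coding forms alone was not computed and would differ.

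The constitutive cutting subunits were all abundant. Psmb6, with the caspase-like activity, stood at 86.2 TPM in replicate 1 and 67.9 TPM in replicate 2. Psmb7, with the trypsin-like activity, stood at 40.2 and 30.6 TPM. Psmb5, with the chymotrypsin-like activity and the main target of bortezomib, was the lowest of the 3 with 28.7 and 20.4 TPM. The order was the same in each library. The ranges of the 3 genes over the libraries did not overlap, although 30.6 TPM for Psmb7 and 28.7 TPM for Psmb5 lay close.

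The immunoproteasome subunits were present at lower levels than their constitutive counterparts. Psmb8, the counterpart of Psmb5, stood at 7.08 TPM in replicate 1 and 2.51 TPM in replicate 2, from 1644 and 1018 counts. Psmb10, the counterpart of Psmb7, stood at 4.99 and 1.64 TPM, from 1343 and 730 counts. Psmb9, the counterpart of Psmb6, stood at 2.88 and 2.07 TPM, from 762 and 771 counts. Psmb8 and Psmb10 were higher in replicate 1 and ranged widely, and in replicate 2 all 3 lay between 1.64 and 2.51 TPM. The medians of protein-coding genes that reached 1 TPM in both libraries were 4.84 and 3.99 TPM. Psmb8 and Psmb10 lay above that median in replicate 1 and below it in replicate 2, and Psmb9 lay below it in both. In every comparison of a pair, the lower constitutive value lay above the higher immunoproteasome value. In bulk RNA, a few cells with much of an mRNA and many cells with little of it cannot be told apart.

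Within a library, the ratio of constitutive to immunoproteasome mRNA differed from pair to pair. Psmb6 was at 29.9 times Psmb9 in replicate 1 and at 32.8 times in replicate 2, a mean of 31.4 ± 2.02 (SD, n = 2). Psmb7 was at 8.06 and 18.6 times Psmb10, a mean of 13.3 ± 7.48. Psmb5 was at 4.06 and 8.12 times Psmb8, a mean of 6.09 ± 2.87. The ratio for Psmb6 was above those of the other pairs in both libraries. Within each library the ratio for Psmb7 was above that for Psmb5, although their ranges over the libraries overlapped. Summed over the pairs, the immunoproteasome subunits held 8.79% of the catalytic TPM in replicate 1 and 4.97% in replicate 2. These are shares of mRNA, and the makeup of assembled particles was not measured. With 2 libraries of 1 group no test of these ratios was made.

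**Figure D2:**
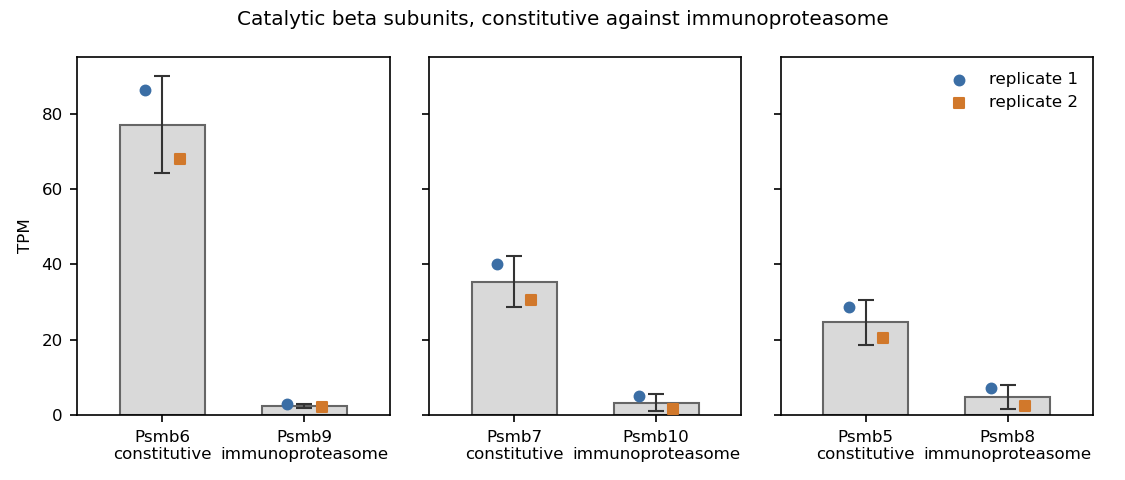
TPM of each constitutive catalytic gene beside its immunoproteasome counterpart, on a linear axis that starts at 0. Bars are means of the 2 libraries, error bars are SD, and points are the libraries; every constitutive value, from 20.4 to 86.2 TPM, lies above every immunoproteasome value, from 1.64 to 7.08 TPM.

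The core subunits made in other tissues were at or near 0. Psma8, an alpha subunit of the testis, had 0 counts in either library; by counting error alone its level could be up to 0.0461 CPM (counts scaled to the library total) in replicate 1 and 0.0330 CPM in replicate 2. Psmb11, the catalytic subunit of the thymus, had 1 count in each library. Psmb11 lies 3410 bases from Psmb5 on chromosome 14, with no annotated protein-coding gene between them.

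The 19S ATPases form the ring that unfolds substrates. All 6 were expressed, with medians of 28.5 and 23.0 TPM. Psmc5 had the highest mean, from 43.6 TPM in replicate 1 and 28.4 TPM in replicate 2. In replicate 2 Psmc3 was above it with 31.1 TPM. Psmc6 was the lowest in both, at 14.8 and 16.4 TPM. The other ATPases, Psmc1, Psmc2 and Psmc4, lay between 18.1 and 29.1 TPM.

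Of the other base subunits, Psmd4, a receptor for ubiquitin chains, was the highest gene of the 19S particle, with 94.3 TPM in replicate 1 and 53.4 TPM in replicate 2. Psmd2 and Psmd1, the scaffold subunits of the base, were at 40.1 and 32.1 TPM and at 15 and 11.5 TPM. The 8 lid subunits had medians of 19.01 and 14.9 TPM. Psmd3 led them with 50.8 and 36.4 TPM, and Psmd12 had the lowest level with 12.8 and 10.1 TPM. Psmd14, the enzyme that cuts ubiquitin chains from the substrate, stood at 18.8 and 13.9 TPM. The highest and lowest lid genes did not overlap, while Psmd6, Psmd13 and Psmd14 lay within 13.9 to 19.2 TPM and differed by less than their spread.

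Assembly factors differed in level. Pomp, a core assembly factor that is degraded by the finished particle, was at 45.8 and 40.7 TPM, as high as many core subunits. Psmg4 was at 18.3 and 12.2 TPM. The other alpha ring chaperones, Psmg1, Psmg2 and Psmg3, lay between 6.22 and 9.54 TPM. Of the chaperones of the 19S base, Psmd10 (gankyrin) stood at 6.84 and 6.75 TPM, Psmd5 at 6.84 and 6.44 TPM and Psmd9 at 3.43 and 2.88 TPM. These lay below all 17 genes of the 19S particle in both libraries.

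Activators other than the 19S particle were at intermediate levels. Psme1 and Psme2 encode the paired subunits of PA28, an activator induced by interferon, and stood at 7.29 and 6.10 TPM and at 18.7 and 14.7 TPM. Psme2 was therefore above Psme1 in both libraries. Psme3, a nuclear relative, was at 14.5 and 10.5 TPM, and Psme4, which encodes PA200, at 9.84 and 11.3 TPM. Psmf1, which encodes the inhibitor PI31, stood at 10.3 and 7.24 TPM. Psme2b, a near copy of Psme2, was under 1 TPM with 0.610 and 0.590 TPM, and reads of the 2 genes could have been split between them. Psmc3ip matches by symbol alone: it encodes a partner of Psmc3 that acts in meiotic recombination and is no proteasome subunit. It stood at 1.41 TPM in replicate 1 and 0.890 TPM in replicate 2.

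Genes of the same machinery that fall outside the naming rule were measured as well. Of 7 such partners 6 matched in the tables, and each of the 6 reached 1 TPM in both. Adrm1, another ubiquitin receptor of the 19S particle, stood at 27.5 and 17.3 TPM, and Sem1, the smallest lid subunit, at 24.8 and 24.0 TPM. The deubiquitinases Uchl5 and Usp14 stood at 13.9 and 8.96 TPM and at 9.77 and 8.28 TPM. Among 6 regulators of proteasome genes, 5 reached 1 TPM in both libraries. Vcp, the segregase that extracts proteins from membranes and complexes, led with 42.5 and 35.6 TPM. Nfe2l1, the factor that raises proteasome genes when the protease is inhibited, stood at 8.04 and 5.75 TPM. Its relative Nfe2l2 was at 3.77 and 3.01 TPM, and Nfe2l3 was the member below 1 TPM, with 42 and 41 counts. Ddi2, the protease that cuts Nfe2l1, was at 4.55 and 2.79 TPM, and Ngly1, which removes its sugars, at 1.75 and 2.21 TPM.

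The libraries were then compared with each other, gene by gene, to see which proteasome genes varied within the condition. Ratios are of counts scaled by TMM (a trimmed mean of ratios over genes), as log2 of replicate 2 over replicate 1. A gene was called at an adjusted p under 0.05 in an exact two-sided binomial test with Benjamini-Hochberg adjustment over 15272 genes, and a difference of 2-fold or more. The test compares the reads of 2 libraries, not conditions, and covers counting error only. Of 49 proteasome genes tested, 0 were called higher in replicate 2, beside 2.42% of all genes tested, and 2 were called lower, beside 4.08%. The counts over the set are small and near the background. At a limit of 1.5-fold the same 2 genes were called lower, beside 9.78% of all genes tested, and 0 higher, beside 6.35%. With no limit on the fold, 28 of the 49 were called lower, a larger share than the 30.5% of all genes tested. The 13 called higher were a smaller share than the 31.5% of all genes tested. Such calls depend on depth: Psmc2, with 11568 and 15293 counts, was called lower at a log2 ratio of only -0.05. Psma8 and Psmb11 were too low to be tested.

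The 2 called genes were both immunoproteasome subunits. Psmb10 fell by 1.33 on the log2 scale from replicate 1 to replicate 2 (95% exact interval -1.46 to -1.20; adjusted p of the exact binomial test 4.08e-93). Psmb8 fell by 1.14 (-1.26 to -1.03; adjusted p of the exact test 2.07e-89). Of all genes tested, 2.46% had a lower ratio than Psmb10 and 3.78% had a lower ratio than Psmb8. Psmb9 had a ratio of -0.43 (-0.58 to -0.29), which was under the 2-fold limit and whose interval did not overlap those of Psmb8 and Psmb10. The other 47 tested genes, Psmb9 included, lay between -0.43 and 0.48.

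**Figure D3:**
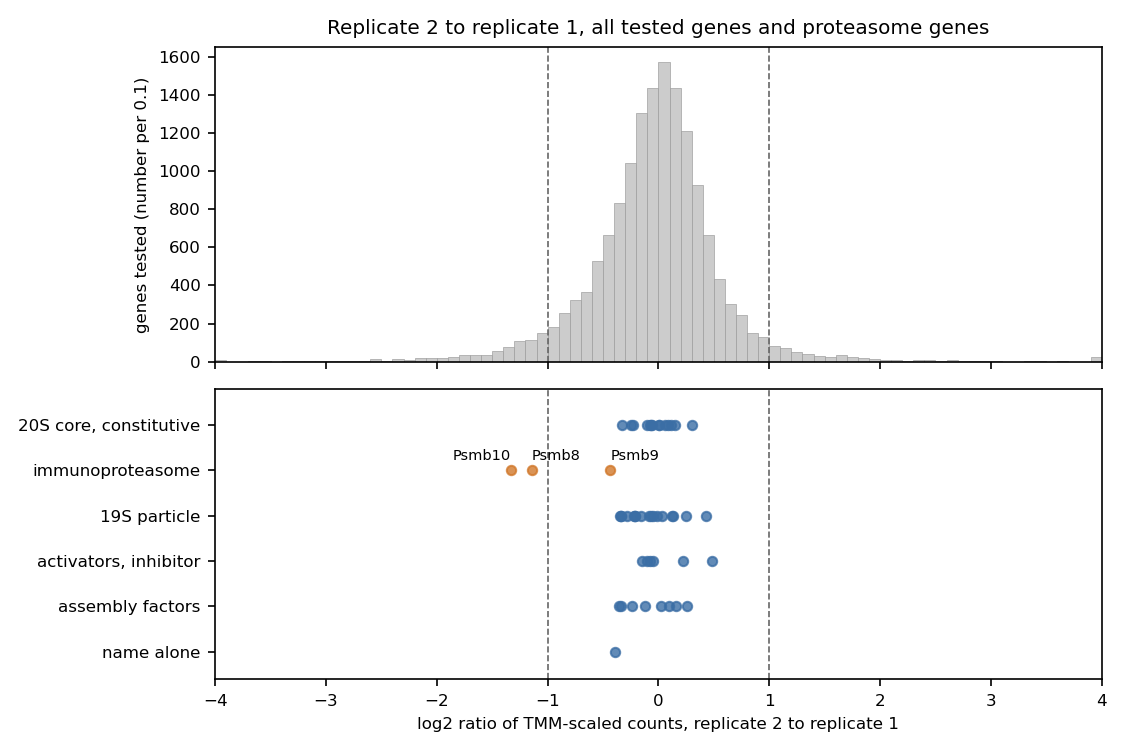
Upper panel: number of genes tested in each 0.1 step of the log2 ratio of TMM-scaled counts, replicate 2 to replicate 1, with values beyond 4 in either direction placed in the end steps. Lower panel: the same ratio for each of the 49 tested proteasome genes, by role; dashed lines mark 2-fold, and Psmb10 and Psmb8 are the points beyond them.

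The constitutive counterparts had ratios nearer to 0: -0.08 for Psmb6, -0.11 for Psmb7 and -0.23 for Psmb5. Over the 14 constitutive core genes the median ratio was -0.03, with 7 above and 7 below 0, and over all 15272 tested genes it was -0.01. The highest ratio of the set was that of Psme4, with 0.48 (0.45 to 0.51), followed by Psmc6 with 0.43 and Psmb1 with 0.31. On the TPM scale 46 of the 51 genes were lower in replicate 2. The median protein-coding gene at 1 TPM or more was also lower there, with a log2 TPM ratio of -0.26, beside -0.35 for the proteasome genes, so a lower TPM in replicate 2 is shared with most genes. Psmb10 and Psmb8 exceeded that shift, with TPM 3.04 and 2.82 times as high in replicate 1. Of the 6 partners and 6 regulators tested, 0 were called in either direction, beside 6.5% of all genes tested, so a count of 0 is near the background. Ratios were -0.41 for Adrm1, -0.24 for Nfe2l1 and 0.61 for Ngly1.

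Genes outside the set also differed between the libraries. Of the 7 erythroid markers, 5 were called higher in replicate 2: Hba-a1, Hba-a2, Hbb-bs, Hbb-bt and Alas2, with ratios from 1.15 to 1.78, beside 2.42% of all genes tested. The other markers, Gata1 and Klf1, had ratios of 0.43 and 0.18. The part of this difference in the ratios of Psmb8 and Psmb10 was not tested. The markers of other cell types stayed below 1 TPM in both libraries. Of the macrophage and dendritic list the highest was Cd68, with 0.440 and 0.310 TPM. Its counts were 93 and 110, and those of Csf1r were 189 and 227, so both were detected.

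The class I pathway, which uses the peptides of the immunoproteasome and shares interferon control with it, gave a reference. Of 11 genes listed for class I presentation and the interferon response, 8 reached 1 TPM in both. B2m, the light chain of class I molecules, stood at 13.6 and 12.4 TPM, and the class I heavy chain gene H2-D1 at 11.01 and 9.99 TPM. Tap1 and Tap2, which form the peptide transporter, stood at 4.92 and 4.70 TPM and at 7.70 and 5.45 TPM. Of 10 tested genes 0 were called in either direction, beside the 6.5% of all genes tested, so a count of 0 is near the background. Their median ratio was 0.05.

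On chromosome 17, Tap1 is the single other protein-coding gene annotated from Psmb9 to Psmb8 (Psmb9 at 34181987 to 34187764, Tap1 at 34187553 to 34197225, Psmb8 at 34197721 to 34201454, GRCm38). As annotated, Tap1 overlaps the end of Psmb9 that faces Psmb8. From Psmb9 over Tap1 to Psmb8 the ratios were -0.43, 0.08 and -1.14. Psmb10 is on another chromosome (chromosome 8, 105935735 to 105938444). The interferon-induced PA28 genes Psme1 and Psme2 had ratios of -0.05 and -0.07. Irf1, an interferon-induced transcription factor, had a ratio of 0.20, at 1.12 and 1.02 TPM. Irf8 had 2 counts in replicate 1 and 0 in replicate 2, and Nlrc5, an activator of class I genes, had 6 and 17 counts.

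**Figure D4:**
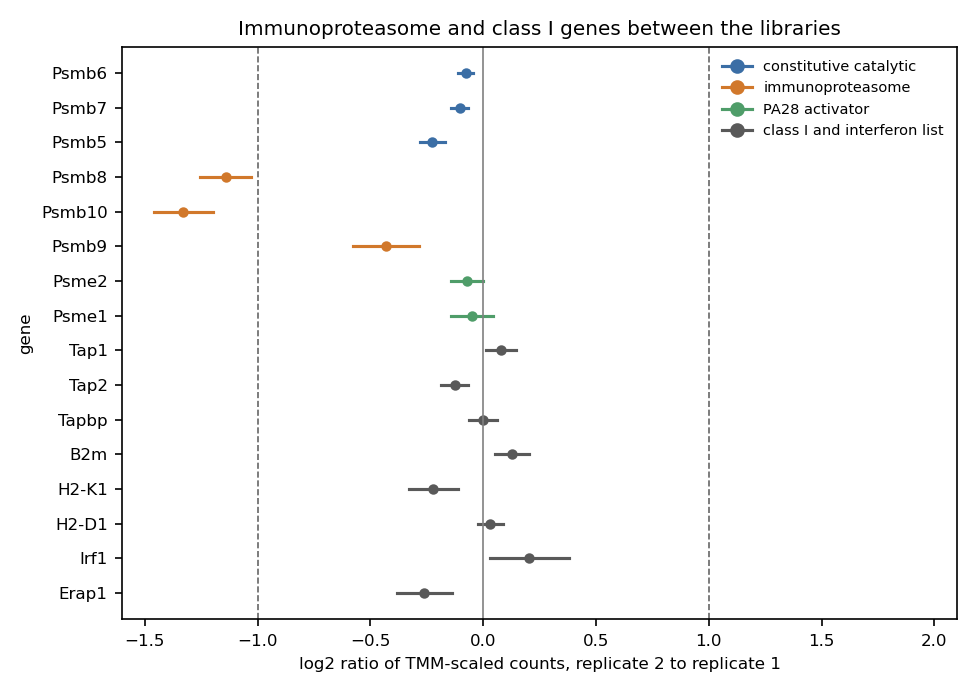
Log2 ratio of TMM-scaled counts, replicate 2 to replicate 1, with 95% exact intervals (counting error only), for the catalytic subunits, the PA28 genes and 8 genes of the class I and interferon list; Nlrc5 and Irf8, which had few counts, are not drawn. Dashed lines mark 2-fold; Psmb8 and Psmb10 lie beyond the lower line and the 8 genes of that list lie between -0.26 and 0.20.

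Transcript tables showed which forms of each gene made up these levels. Of the 47 genes at 1 TPM or more, 38 had several transcripts in the tables, and in all 38 the most abundant transcript was the same in both libraries. It held a median of 92.2% of the gene's TPM. In 37 of the 38 genes it was annotated as protein-coding. The exception was the alpha subunit gene Psma3, where Psma3-203, annotated as a retained intron, held 44.1% in replicate 1 and 42.6% in replicate 2, close to the coding Psma3-204 with 36.0% and 41.2%.

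Protein-coding transcripts held less than 80% of the TPM in either library in 5 genes: Psma3, Psmd4, Psmb4, Psme2 and Psme1. For Psmb4, the gene with the highest level, the coding Psmb4-201 held 57.0% and 64.8%, that is 78.9 and 70.2 TPM, and 2 retained-intron forms held most of the rest. By these estimates, the coding Psmb4-201 alone stood below the leading coding form of Psmb3, with 115 and 80.8 TPM. For Psmd4 the noncoding Psmd4-207 held 23.1% in replicate 1 and 8.55% in replicate 2. The TPM of Psmd4 differed 1.77-fold between the libraries and its scaled counts 1.26-fold.

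The immunoproteasome genes also had more than 1 coding form. The leading transcript of Psmb8, Psmb8-203, held 63.9% and 57.2%, and Psmb8-201 held 33.0% and 39.9%. Both forms were lower in replicate 2: Psmb8-203 stood at 4.52 and 1.44 TPM, and Psmb8-201 at 2.34 and 1.00 TPM. For Psmb9 the leading Psmb9-204 held 77.0% and 63.8%, and Psmb9-202 held 9.94% and 26.3%. In level these were 2.22 and 1.32 TPM and 0.290 and 0.540 TPM, so the forms of Psmb9 did not move alike. Psmb10 had a single transcript in the tables.

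**Figure D5:**
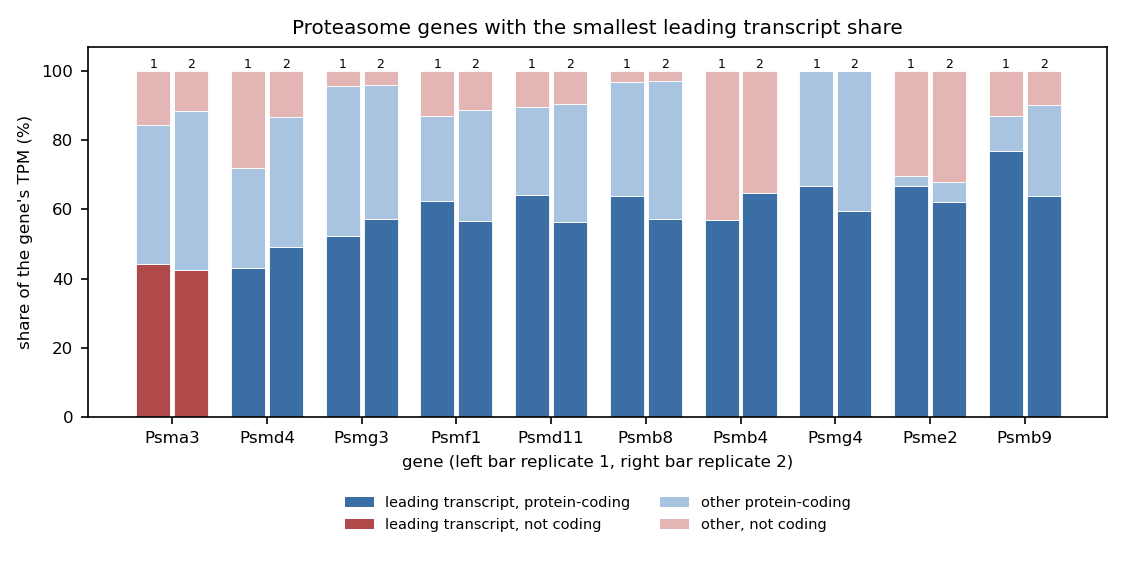
Share of each gene's TPM held by its leading transcript, by other protein-coding transcripts and by transcripts not annotated as protein-coding, for the 10 genes with the smallest leading share; left bars are replicate 1 and right bars replicate 2. Psma3 is the gene whose leading transcript is not coding, with 44.1% and 42.6%.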

How the data were processed

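The 2 libraries of 1 group were used. By the authors' readme files, the values were made on mm10 with GENCODE M4. The program was not given in the sources used here. The authors' tables hold, per the file headers, an estimated count, its posterior mean and posterior standard deviation, TPM and FPKM for each gene, and for each transcript also the percent of the gene's TPM. TPM as deposited by the authors was used for levels, and FPKM as deposited by the authors only as an alternative. Of 43346 Ensembl gene rows, 42462 matched GENCODE M21 (GRCm38, the coordinates of mm10) by identifier without version.

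Estimated counts were rounded and scaled with TMM in edgeR 4.0.16 (R 4.3.3). Each gene that had 10 or more counts in either library was tested with an exact two-sided binomial test (scipy 1.17.1), with 0.5 added to counts for log2 ratios and exact (Clopper-Pearson) 95% intervals. A count of 0 allows up to 3 counts. No molecular identifiers mark the reads as separate molecules, so floors and intervals cover counting error only. The script was tested on simulated data drawn with counting error only. That setting has no other variation between libraries, so it does not show how the calls hold for these libraries. The libraries differed over genes by a chi-square of 368 per degree of freedom. The value edgeR names the biological coefficient of variation was 0.216. It was estimated from these same 2 libraries and does not separate biological from technical variation.

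Named genes were the catalytic pairs, the highest and lowest gene of each role, genes under 1 TPM, called genes, and those with the smallest leading transcript share. No gene of the set had a posterior standard deviation above 5% of its count. The set and lists were chosen with earlier results of these data known. Paaf1 was not matched by name. The values of 1 gene counted in the class I and interferon list are not reported here. Promoter sequences are from RefSeq, GRCm38.p6. Alternatives were other TPM thresholds, FPKM, posterior means, counts, DESeq2 1.42.0 size factors, total counts, other minimums, folds and pseudocounts, and each library left out; a ratio from TPM rescaled over protein-coding genes was added after seeing the data.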

Additional observations from a re-analysis of the deposited data

How the results depend on the processing

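No call between the libraries changed with the scaling (DESeq2 size factors or total counts), the count minimum, posterior mean counts, a 1.5-fold limit or TPM rescaled over protein-coding genes, an alternative chosen after seeing the data: Psmb8 and Psmb10 were called lower in each. Without a fold limit, 13 of the 49 tested proteasome genes were called higher and 28 lower in replicate 2, beside 31.5% and 30.5% of all genes tested. On rescaled TPM the median of all tested genes moved to -0.24 on the log2 scale, with -1.44 for Psmb8 and -1.55 for Psmb10. With counts in place of TPM, which are not per length, the ratio of Psmb6 to Psmb9 was 19.4. The span of the constitutive core was 5.37 by FPKM, 5.38 by posterior mean TPM, 5.61 by counts and 5.62 to 5.62 with 1 library left out. With 1 library left out, the ratio of constitutive to immunoproteasome sums ranged from 10.4 to 19.1. Leaving out a library gives no ratio between the libraries. No paired analysis was possible because the labels give 1 group. Psma8, Psmb11 and Irf8 had too few counts to be tested, and Nlrc5, tested with 6 and 17 counts, had a wide interval of -0.36 to 2.68 around its log2 ratio of 0.98.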

Other observations

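Beside the protein-coding genes, 4 pseudogenes with a proteasome symbol were in the tables: Psmb5-ps, Psmb6-ps, Psmb6-ps2 and Psmb7-ps2. They held almost no reads. Psmb5-ps and Psmb6-ps2 had 0 counts in both libraries, Psmb6-ps had 2 and 1, and Psmb7-ps2 had 0 and 8.91 estimated counts. Pseudogene copies under other names were not searched.

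The 51 genes lay on 16 chromosomes, with 10 on chromosome 11 and 6 each on chromosomes 2 and 14. The PA28 genes Psme1 and Psme2 lie 5911 bases apart on chromosome 14, with Emc9 between them, and were read at 0.391 and 0.416 TPM of Psme1 for each TPM of Psme2 in replicates 1 and 2. Over the 250 bases before the RefSeq start, the proteasome promoters had a median of 14.5 CG dinucleotides, beside 6 for all promoters in the table. Promoters of expressed genes alone were not compared, so the difference is not shown to be particular to proteasome genes.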
